A study of Mus musculus with 8 samples.

Results

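The distal stretch of mouse chromosome 11 described here runs over chr11:106256154-120617936 (mm10, GENCODE M21 annotation), a length of 14.4 Mb, and stood out for high RNA levels in the mammary carcinoma line pB2. Its members are the protein-coding genes that start within it and have a mean of at least 1 CPM (counts scaled by the effective size of each library) in pB2. Of the 218 protein-coding genes of the count files that start there, 130 were members, 80 were under 1 CPM in pB2, and 8 were left out by name: Sox9, Itgb4, Tk1, Birc5, Timp2, Rpl38, Atp5h and Ndufaf8. The files list 53379 genes, of which 15890 had enough counts to be tested, and all 130 members were among these. The stretch was chosen by its high RNA levels in pB2 relative to the other lines and its members were selected on their CPM in pB2, so every value of pB2 against another line is given as a description without a test. Tests were read only from comparisons among the other lines, which the choice did not use.

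The series holds RNA-seq counts from 4 cell lines grown from tumours of C57BL/6 mice and kept as monolayers, with 2 libraries per line. pB2 and pB3 came from MMTV-PyMT mice, in which the mouse mammary tumour virus promoter drives the polyoma middle T oncogene in mammary epithelium. Epcam hi and another line came from mice that carry the same transgene with a Snail-IRES-YFP reporter, so all lines share the PyMT oncogene. That other line is called the second reporter line in the text and stands under its own name in the plots. Each line stands for a single tumour-derived population, and nothing in the labels says that the 2 libraries were separate cultures, so a p-value here reflects nothing beyond the variation between 2 libraries of a line.

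Carcinoma lines often gain or lose whole pieces of chromosomes. When a piece is gained, the RNA of the genes on it tends to go up together and by a similar factor, whatever the genes do, whereas a change in a transcription factor or an enhancer acts on particular genes and leaves their neighbours to their own levels. Feedback on protein or RNA amounts can also hold a gene at its usual level after a gain. The distal part of chromosome 11 holds genes for RNA handling, protein synthesis, vesicle traffic and metabolism, among other roles. DNA copy number was not analysed here.

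The promoters of 3 members are shown, of which 2 were among the high RNA processing genes and 1 differed little between lines; no member lower in pB2 is shown. Alyref codes for an mRNA export adaptor and Eif4a3 for the helicase core of the exon junction complex; both were far higher in pB2. Hgs codes for an endosomal sorting protein and had a like level in all lines. The sequences are the 250 bases before each annotated start, 5′ to 3′ on the strand of the gene, from RefSeq (GRCm38.p6), at chr11:120598366-120598615 on the minus strand for Alyref, chr11:119300044-119300293 on the minus strand for Eif4a3 and chr11:120467385-120467634 on the plus strand for Hgs. Capitals mark matches on either strand to a TATA box, a CCAAT box, an Sp1 GC box or an ETS site, whose letters are given with the counts over all promoters.
Alyref: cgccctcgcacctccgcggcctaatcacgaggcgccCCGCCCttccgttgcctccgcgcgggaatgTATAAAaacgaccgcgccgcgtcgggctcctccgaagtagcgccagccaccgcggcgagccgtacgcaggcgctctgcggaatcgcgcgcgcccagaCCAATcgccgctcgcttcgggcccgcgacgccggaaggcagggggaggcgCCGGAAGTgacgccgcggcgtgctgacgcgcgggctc
Eif4a3: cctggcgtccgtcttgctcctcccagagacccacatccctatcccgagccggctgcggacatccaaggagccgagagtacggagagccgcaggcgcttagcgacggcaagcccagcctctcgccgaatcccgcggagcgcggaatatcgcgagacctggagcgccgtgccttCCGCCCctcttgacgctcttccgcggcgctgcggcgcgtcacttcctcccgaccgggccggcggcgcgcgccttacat
Hgs: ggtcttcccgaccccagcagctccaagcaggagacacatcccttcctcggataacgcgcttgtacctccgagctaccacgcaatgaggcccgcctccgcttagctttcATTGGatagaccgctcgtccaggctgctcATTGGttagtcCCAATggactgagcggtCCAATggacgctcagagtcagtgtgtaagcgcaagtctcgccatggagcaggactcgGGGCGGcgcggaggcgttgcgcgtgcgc
Alyref held 1 match to each of the 4 motifs, Eif4a3 held a single GC box, and Hgs held 4 CCAAT boxes and 1 GC box. A start of a neighbour on the opposite strand lies close to the start of Alyref (Anapc11, 56 bases away) and of Hgs (Arl16, 28 bases away).

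Total counts were 12442730 to 19149916 per library, so that 3 counts in a library correspond to 0.159 to 0.222 CPM. The epithelial origin given in the labels was checked with 9 mammary epithelial markers, whose summed CPM was 1444 and 1370 in pB2, 1420 and 1277 in the second reporter line, 2850 and 3041 in pB3 and 6623 and 6296 in Epcam hi. In the second reporter line nearly all of it was Krt18 (1160 and 1069 CPM) and Krt8 (250.2 and 202 CPM), and Epcam itself was at 3.85 and 3.70 CPM there, against 1410 and 1537 CPM in Epcam hi. The summed CPM of 8 leukocyte markers was 109 and 104 in pB2 and 38.3 to 68.7 in the other libraries, of which Cd14 was 108 and 102 CPM in pB2. In Epcam hi, Cd68 was 35.5 and 13.4 CPM and Cd14 30.7 and 34.7 CPM. The defining marker Ptprc had 0 counts in pB2. Summed endothelial markers were 13.1 and 13.8 CPM in pB2 and 2.55 to 12.05 CPM elsewhere, with Cdh5, Kdr, Tek, Vwf and Emcn at 0 counts in pB2. Within that list Erg was at 4.89 and 7.37 CPM in pB2 and at most 0.0672 CPM elsewhere, and Pecam1 at 0.296 and 0.530 CPM in pB2 and at most 0.130 CPM elsewhere. Summed fibroblast markers were 59.1 and 73.5 CPM in pB2 and 185 to 467 CPM elsewhere. In pB2 Gsn was at 13.1 and 11.6 CPM, against 153 to 465 CPM elsewhere, where it made up most of the sum. Pdgfra was at 43.6 and 59.7 CPM in pB2 and at 2.03 to 15.5 CPM elsewhere. The mesenchymal marker Vim was at 3388 and 2335 CPM in the second reporter line and 2310 and 2432 CPM in pB3. It was at 13.8 and 14.1 CPM in pB2 and 21.3 and 32.5 CPM in Epcam hi. Zeb1 was at 27.1 to 49.6 CPM in the second reporter line and pB3, and at most 1.04 CPM in pB2 and Epcam hi.

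Counts from the 130 members made up 2.13% and 2.00% of the pB2 libraries, against 0.967% and 0.902% of the libraries of the second reporter line, 0.937% and 0.991% of the pB3 libraries and 0.924% and 0.943% of the Epcam hi libraries. The stretch thus took about the same share of RNA in the 6 libraries of the other lines and a larger one in both libraries of pB2. In bulk RNA, a high level in few cells and a moderate level in many cannot be told apart. The fitted log2 fold change of pB2 had a median over the members of 0.89 against the second reporter line, 0.97 against pB3 and 0.87 against Epcam hi. These comparisons share the pB2 libraries. Over the 10916 protein-coding genes outside the stretch with at least 1 CPM in pB2, the same medians were 0.08, 0.09 and 0.11. Most members lay above 0 in each comparison: 106 of 130 against the second reporter line, 113 against pB3 and 110 against Epcam hi. These were 81.5%, 86.9% and 84.6% of members. In the same order, 53.4%, 55.0% and 54.9% of those 10916 genes lay above 0.

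In 90 members (69.2%) both pB2 libraries lay above all 6 others, and in 6 members both lay below, beside 24.2% and 21.8% of all tested genes. As the choice of the stretch used these values, nothing is read from these counts.

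**Figure D1:**
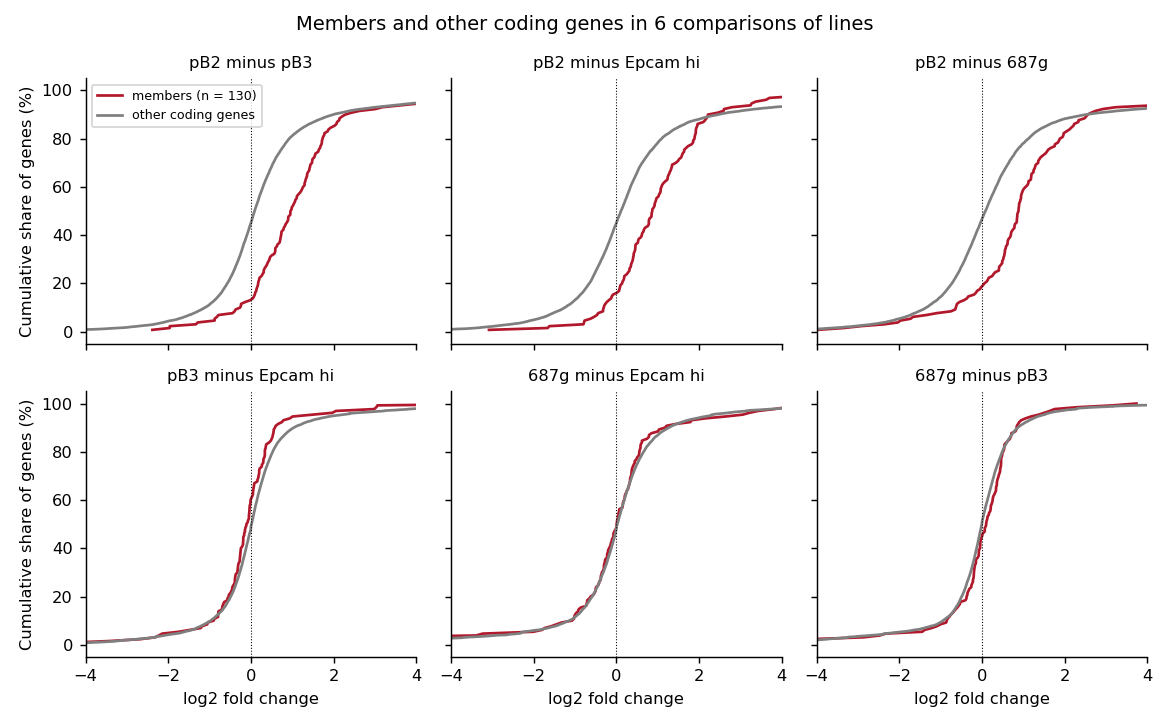
Cumulative share of genes (%, vertical axis) by log2 fold change (horizontal axis, drawn from −4 to 4) for the 130 members in red and 10916 other protein-coding genes in grey, in 6 comparisons of lines. In the upper row, which holds pB2, the red curve is displaced to the right with medians of 0.97, 0.87 and 0.89; in the lower row, without pB2, the red and grey curves lie close together.

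Position divided the stretch. Its widest gap without a member, 2.85 Mb, lies between Map2k6 (chr11:110399122-110525522) and Slc39a11 (start 113244853), with 26 members before it and 104 after it; this division was chosen after the values were seen. For the difference between pB2 and the mean of the other lines, the median was 0.09 over the 26 members before the gap, with 14 above 0, and 1.07 over the 104 members after it, with 97 above 0. Those before the gap were thus close to the other coding genes of chromosome 11, whose median was 0.10 over 771 genes. Of the members, 53.8% before the gap and 93.3% after it were above 0, beside 54.0% of those 771 genes. pB2 was the line with the highest mean CPM for 11 of 26 members before the gap and for 87 of 104 (83.7%) after it, against 38.3% of the coding genes outside the stretch.

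In consecutive blocks of 15 members (25 in the last) ordered by start, the median difference was −0.04 in the block from Psmc5 to Cacng4, then 1.15, 0.98, 1.11, 1.27, 1.41 and 1.29 in the next 6 blocks, and 0.65 in the block from Sgsh to Pcyt2. The block at 1.15, from Prkca to D11Wsu47e, spans the gap: 11 of its 15 members lie before it. The 5 blocks from Cdc42ep4 to Eif4a3, all after the gap, lay between 0.98 and 1.41. Of the 10 members next to the proximal end, from Psmc5 to Bptf, 4 were above 0 with a median of −0.06, and the 10 coding genes just outside that end, from Cyb561 to Ftsj3, had a median of −0.01. The last 10 members before the distal end, from Arl16 to Pcyt2, were all above 0 with a median of 0.91. The 10 coding genes beyond that end, from Sirt7 to Rfng, had a median of 0.27. All 26 expressed coding genes beyond the distal end, up to Metrnl, had a median of −0.07, with 12 above 0. Both pB2 libraries showed the same profile, with medians of 0.72 and 0.75 over all members around the mean of the 8 libraries, whereas the 6 other libraries lay between −0.26 and −0.15.

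**Figure D2:**
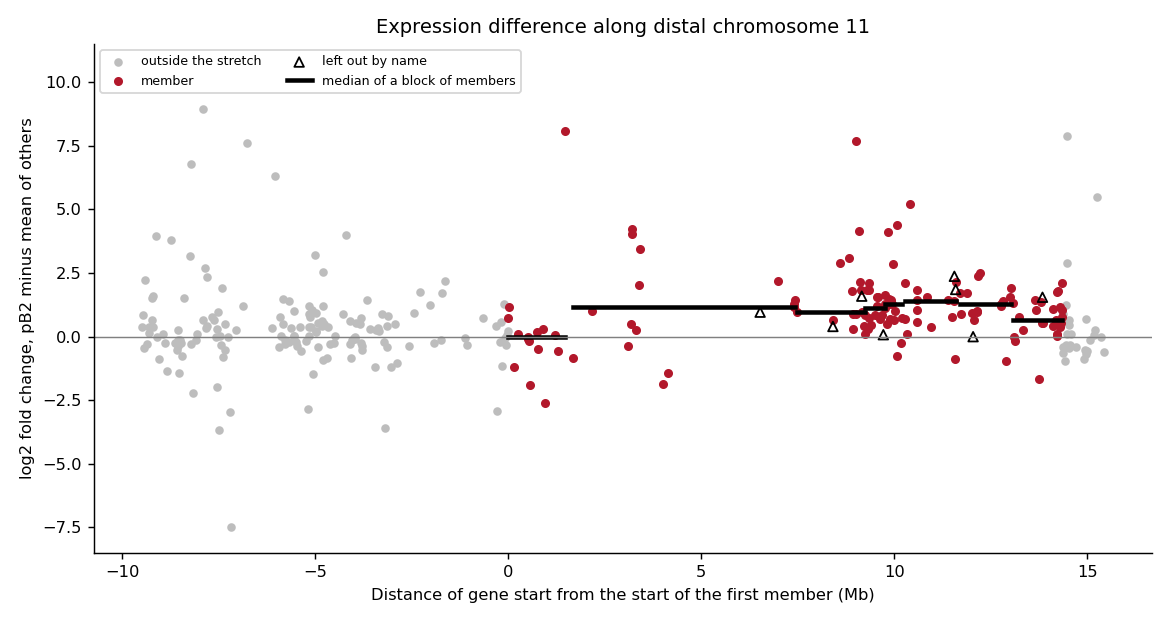
Log2 fold change of pB2 against the mean of the other lines (vertical axis) by distance of each gene's start from that of the first member in Mb (horizontal axis), for members (red), genes left out by name (triangles) and coding genes outside the stretch (grey); black lines are block medians. The first block sits at −0.04, the next 6 between 0.98 and 1.41, and the last at 0.65.

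**Figure D3:**
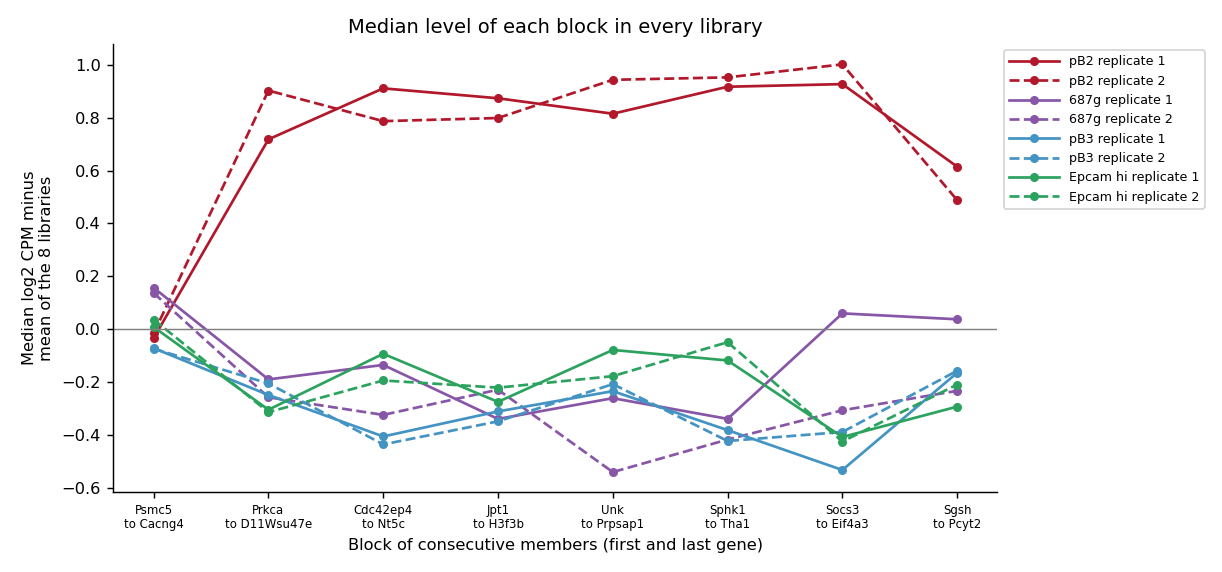
Median over each block of members of log2 CPM minus the mean of the 8 libraries (vertical axis), for 8 blocks in order of position (horizontal axis) and for each library, with replicate 2 dashed. In the first block the 8 libraries lie together; from the second block on both pB2 libraries lie above all others.

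The members for RNA processing, export and decay had a median difference of 1.12 over 12 genes. Both pB2 libraries lay above all others for 9 of them, beside 69.2% of all members and 24.2% of all tested genes. Alyref, the mRNA export adaptor, had 596 and 449 CPM in pB2, against 96.3 and 90.8 in the second reporter line, 156 and 182 in pB3 and 101 and 130 in Epcam hi. Eif4a3 had 561 and 464 CPM in pB2, against 112 and 106 in the second reporter line, 153 and 169 in pB3 and 139 and 144 in Epcam hi. For both genes the pB2 libraries were far above the other 6, and the differences were 2.10 ± 0.15 and 1.92 ± 0.13 (log2, SE, n = 2 libraries per line). Srsf2, a splicing factor that binds exonic enhancers, had 295 and 327 CPM in pB2 and 146 to 239 CPM in the other libraries, a difference of 0.58 ± 0.17. Tsen54, a subunit of the tRNA splicing endonuclease, had 51.4 and 48.6 CPM in pB2 and 19.6 to 24.9 CPM elsewhere, with no overlap.

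The 20 members for protein synthesis, targeting and turnover had a median difference of 0.86. Mrpl12, a protein of the large subunit of the mitochondrial ribosome, had 957 and 837 CPM in pB2, against 231 and 232 in the second reporter line, 346 and 353 in pB3 and 210 and 270 in Epcam hi. Trim47, a RING-domain ubiquitin ligase, had 235 and 227 CPM in pB2, against 8.04 and 5.58 in the second reporter line, 18.6 and 18.7 in pB3 and 19.2 and 18.2 in Epcam hi. Its difference of 4.11 ± 0.14 was far above the members' median of 0.98; Trim47 overlaps Trim65 on the same strand, so reads of the overlap may have been split or lost. P4hb, the protein disulphide isomerase of the endoplasmic reticulum, was abundant in all lines at 2298 and 1798 CPM in pB2, 1844 and 1941 in the second reporter line, 1556 and 1704 in pB3 and 1303 and 1278 in Epcam hi, and its groups overlapped. Psmd12, a subunit of the proteasome lid, had 261 and 215 CPM in pB2 and 204 to 283 CPM in the others, so pB2 lay inside their range. Smurf2, a ubiquitin ligase that acts on receptors of the TGF-beta pathway, ran the other way, with 72.6 and 67.1 CPM in pB2, against 317 and 254 in the second reporter line, 272 and 273 in pB3 and 252 and 190 in Epcam hi.

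For chromatin, transcription and genome maintenance, 11 members had a median difference of 1.17. H3f3b, which codes for the replication-independent histone variant H3.3, had 1688 and 1603 CPM in pB2, against 902 and 805 in the second reporter line, 789 and 785 in pB3 and 603 and 708 in Epcam hi. Its difference of 1.11 ± 0.13 was close to a doubling and its pB2 libraries were clear of the rest. Jpt1, a protein linked to microtubules and cell growth, had 420 and 371 CPM in pB2 and 271 to 521 CPM in the others, with overlap. Foxj1, the master transcription factor of motile cilia, had 9.998 and 11.7 CPM in pB2, against 0.223 and 0.134 in the second reporter line, 0.471 and 0.324 in pB3 and 2.46 and 1.15 in Epcam hi.

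The 17 signalling members had the lowest median of the role lists, 0.51. Of these, 10 were clear of the other libraries on the high side, beside 69.2% of all members and 24.2% of all tested genes. Prkar1a, the regulatory subunit of cAMP-dependent protein kinase, had 1957 and 1691 CPM in pB2, against 480 and 401 in the second reporter line, 482 and 525 in pB3 and 409 and 377 in Epcam hi, a difference of 2.04 ± 0.13. It lies before the gap, among neighbours that differed in both directions. Pitpnc1, a phosphatidylinositol transfer protein, was the lowest member in pB2 relative to the others, with 8.89 and 9.81 CPM in pB2, against 53.6 and 42.5 in the second reporter line, 50.2 and 47.7 in pB3 and 82.8 and 75.9 in Epcam hi. Map2k6, a mitogen-activated protein kinase kinase, had 9.48 and 10.1 CPM in pB2, against 89.4 and 109 in the second reporter line, 36.7 and 39.8 in pB3 and 7.25 and 2.63 in Epcam hi. Arhgdia, a GDP dissociation inhibitor, had 461 and 489 CPM in pB2 and 231 to 415 CPM elsewhere. Rptor, the scaffold of mTORC1, had 48.7 and 57.4 CPM in pB2 and 38.8 to 63.1 CPM elsewhere, with overlap. Aatk, a neuronal kinase gene, was low in pB2 at 1.93 and 2.33 CPM, against 18.7 and 14.04 in the second reporter line, 4.64 and 5.83 in pB3 and 5.14 and 2.35 in Epcam hi.

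Among 10 members for cytoskeleton, adhesion and epithelial polarity the median difference was 1.17. Both pB2 libraries lay above all others for 6 of them, beside 69.2% of all members and 24.2% of all tested genes. Slc9a3r1, a scaffold of apical microvilli, had 168 and 175 CPM in pB2, against 33.2 and 21.7 in the second reporter line, 52.2 and 57.8 in pB3 and 77.1 and 86.2 in Epcam hi. Sept9, a septin that forms filaments at the cell cortex, had 173 and 201 CPM in pB2 and 99.6 to 172 CPM elsewhere. The 15 members for membrane traffic and nuclear transport had a median of 1.00. Nup85, a subunit of the nuclear pore Y complex, had 510 and 407 CPM in pB2, against 95.7 and 102 in the second reporter line, 171 and 181 in pB3 and 101 and 139 in Epcam hi. Chmp6, an ESCRT-III protein of endosomes, had 474 and 400 CPM in pB2 and 120 to 239 CPM elsewhere. Hgs, the ESCRT-0 protein, had 45.0 and 50.2 CPM in pB2, against 59.6 and 33.9 in the second reporter line, 44.6 and 42.5 in pB3 and 51.6 and 51.5 in Epcam hi, so that pB2 lay within the spread of the others.

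The 20 members for metabolism and solute transport had a median of 1.16. Galk1, the galactokinase of the Leloir pathway, had 495 and 373 CPM in pB2, against 214 and 252 in the second reporter line, 149 and 173 in pB3 and 178 and 131 in Epcam hi. Nt5c, a nucleotidase, had 334 and 264 CPM in pB2 and 141 to 184 CPM elsewhere. Both were clear of the other libraries. Slc39a11, a zinc transporter and the first member after the gap, had 134 and 107 CPM in pB2, against 14.8 and 10.5 in the second reporter line, 26.8 and 32.5 in pB3 and 53.3 and 49.2 in Epcam hi. Slc39a11 thus differed among the other lines as well as from pB2.

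The largest differences came from genes with low levels in the other lines. Cacng4, a calcium channel auxiliary subunit before the gap, had 76.2 and 101 CPM in pB2, against 1.12 and 0.873 in the second reporter line, 0.202 and 0.194 in pB3 and 0.281 and 0.0547 in Epcam hi, a difference of 8.10 ± 0.23. Fads6, a fatty acid desaturase family member, had 30.2 and 31.5 CPM in pB2, against 0.202 and 0.0648 in pB3 and 3.52 and 2.90 in Epcam hi; the second reporter line had 0 counts, so pB2 was at least 339-fold higher, taking 3 counts over both libraries as the floor. St6galnac2, a sialyltransferase that overlaps another gene on the same strand, had 9.55 and 9.44 CPM in pB2 and at most 0.583 CPM in any other library, and its value is uncertain. The lowest differences were those of Pitpnc1 (−2.61 ± 0.18), Smurf2 (−1.89 ± 0.17), Abca5 (−1.86 ± 0.25), a lysosomal transporter gene, and Aatk (−1.67 ± 0.32).

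**Figure D4:**
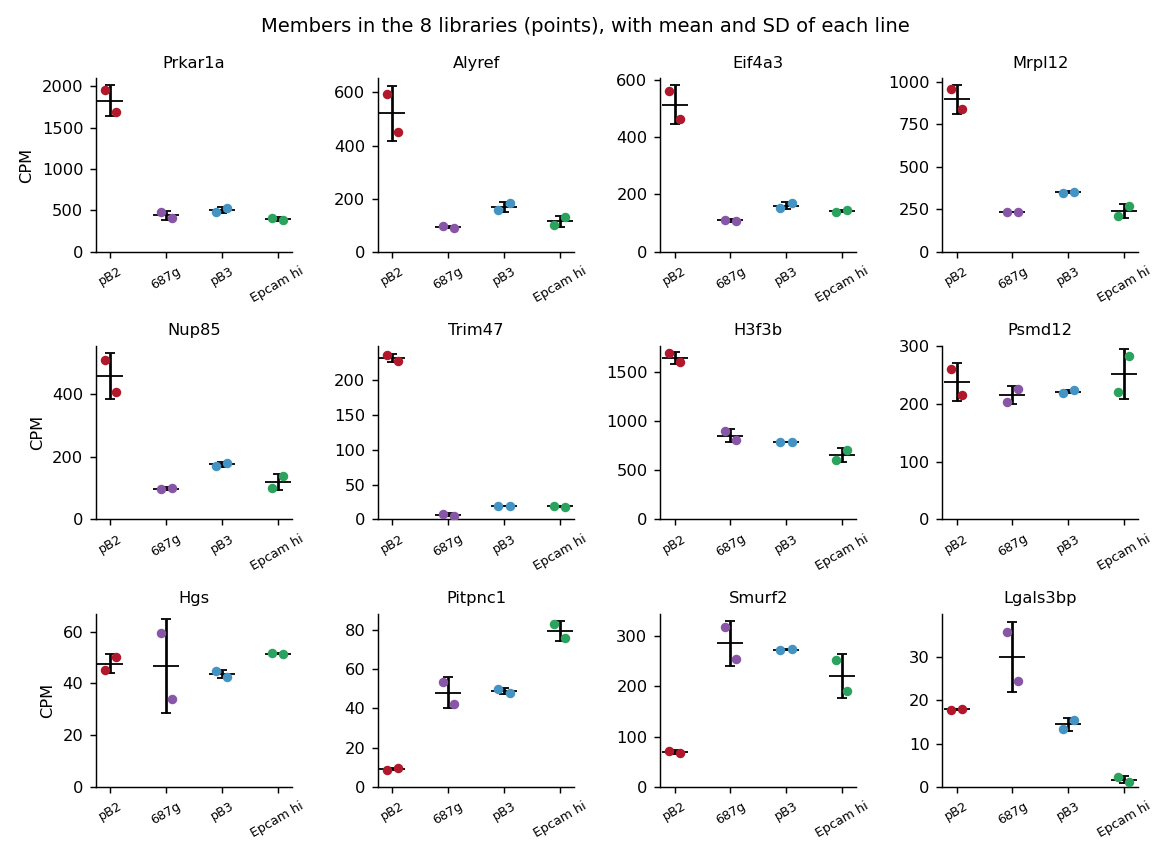
CPM (vertical axis, from 0) of 12 members in the 4 lines (horizontal axis); points are libraries, and the bar and whiskers are the mean and SD of the 2 libraries of a line. Prkar1a, Alyref, Eif4a3, Mrpl12, Nup85, Trim47 and H3f3b stand clear in pB2, Psmd12 and Hgs do not, and Pitpnc1 and Smurf2 are lowest in pB2.

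Partner genes encoded outside the stretch were set beside the members. The choice of the stretch for its level in pB2 enters this comparison, which is a description and was not tested. Over 14 complexes, the 20 member subunits had a median difference of 1.18 for pB2 against the mean of the other lines, and the 189 subunits encoded outside the stretch had 0.20. In the mitochondrial ribosome, Mrpl58, Mrps7, Mrpl38 and Mrpl12 had differences of 1.84 ± 0.13, 1.84 ± 0.14, 1.47 ± 0.14 and 1.74 ± 0.14, with a median of 1.79, while 73 subunits elsewhere had a median of 0.35 and a highest value of 1.45. Alyref and Eif4a3 had a median of 2.01, and 13 partners in the exon junction and export complexes had 0.29. The highest partner, Magohb, was at 1.91, next to Eif4a3 at 1.92, and Alyref2 was at 1.63. For Magohb, pB2 differed by 5.32 from Epcam hi, by 0.45 from the second reporter line and by −0.02 from pB3. In the same order the values were 1.86, 2.23 and 1.67 for Eif4a3 and 1.66, 1.67 and 1.57 for Alyref2. Nup85 at 1.84 stood above all 9 other subunits of the Y complex, whose highest value was 0.92. The same held for Cog1 of the Golgi COG complex at 1.15 (highest partner 0.62). It also held for Prkar1a of protein kinase A at 2.04 (highest partner 0.91). Exoc7 of the exocyst was at 1.00 ± 0.15, with its highest partner close by at 0.93. Against the second reporter line alone, Exoc7 was at 0.86 and an exocyst partner at 2.12. Other member subunits were not set apart: Psmc5 and Psmd12 had 0.73 and 0.06 beside a highest proteasome partner at 1.63, Rptor had 0.25 beside a partner median of 0.30, and Bptf, the reader subunit of NURF, had −0.49 beside −0.17. Smarcd2 of the BAF remodelling complex had 1.17, with 2 of its 12 partners higher, and Srp68 of the signal recognition particle had 0.65, with 1 of 5 partners higher.

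**Figure D5:**
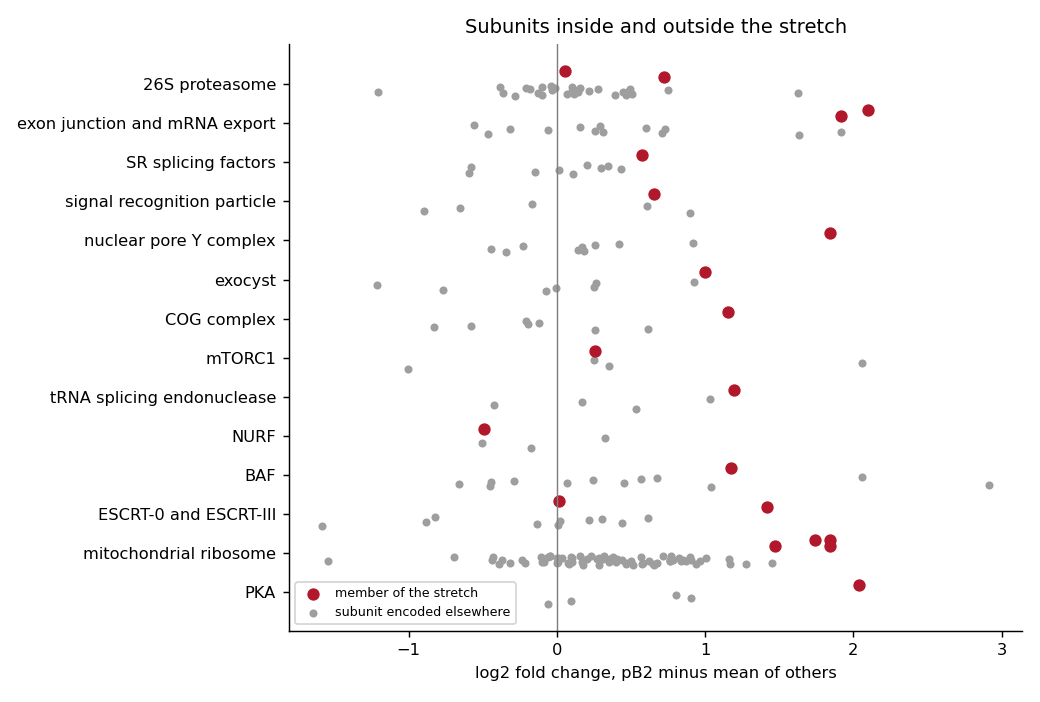
Log2 fold change of pB2 against the mean of the other lines (horizontal axis) for subunits of 14 complexes (vertical axis), with members of the stretch in red and subunits encoded elsewhere in grey. The red points have a median of 1.18 and the grey points 0.20.

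Among the other lines the members' medians lay close to 0. The median over the 130 members was 0.01 for the second reporter line against Epcam hi, 0.11 for the second reporter line against pB3 and −0.09 for pB3 against Epcam hi, where the coding genes outside had medians of 0.02, 0.00 and 0.02. By edgeR's quasi-likelihood test with Benjamini-Hochberg adjustment and an adjusted p under 0.05, 26 members rose and 27 fell in the second reporter line relative to Epcam hi, 40.8% of members, beside 18.4% and 18% of all tested genes and 36.4% in either direction. For the second reporter line relative to pB3, 20 members rose and 14 fell, 26.2% of members, beside 12.8% and 12.9% of all tested genes and 25.8% in either direction. For pB3 relative to Epcam hi, 14 rose and 20 fell, 26.2% of members, beside 14.8% and 14.6% of all tested genes and 29.4% in either direction. The shares of members called were thus near the background in these comparisons. With replicate 1 or replicate 2 of pB3 left out, the calls among members came to 17 or 15 for the second reporter line against pB3, and 15.7% or 15.2% of all tested genes were called. For pB3 against Epcam hi the calls came to 16 or 15, and 18.2% or 18.5% of all tested genes were called.

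Lgals3bp, a secreted galectin ligand, had 35.7 and 24.4 CPM in the second reporter line, 13.4 and 15.5 in pB3 and 2.39 and 1.15 in Epcam hi, and rose by 4.12 ± 0.32 in the second reporter line (edgeR adjusted p = 2.4e-07) and by 3.06 ± 0.32 in pB3 (edgeR adjusted p = 6.7e-06) relative to Epcam hi. Map2k6, described above, rose by 4.36 ± 0.34 in the second reporter line relative to Epcam hi (edgeR adjusted p = 2.4e-07). Ttyh2, a membrane protein of the tweety family, had 10.6 and 10.3 CPM in pB3, against 1.41 and 1.15 in Epcam hi, and rose by 3.04 ± 0.31 (edgeR adjusted p = 5.4e-06). Gprc5c, an orphan G protein-coupled receptor, had 12.7 and 9.47 CPM in the second reporter line, against 1.008 and 0.648 in pB3, and rose by 3.74 ± 0.34 (edgeR adjusted p = 1.8e-06). Abca5 had 58.9 and 40.1 CPM in the second reporter line, against 5.98 and 5.05 in pB3, and rose by 3.17 ± 0.28 (edgeR adjusted p = 1.3e-06). None of these groups of libraries overlapped.

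Other members fell. Evpl, which codes for the cornified envelope protein envoplakin, had 2 counts over both libraries of the second reporter line, against 7.25 and 7.28 CPM in Epcam hi, a ratio of Epcam hi over the second reporter line of 119 with a 95% exact counting interval of 32.6 to 989 (edgeR adjusted p = 3.7e-07 for the fitted change in the second reporter line). Llgl2, a basolateral polarity protein, had 5.58 and 4.599 CPM in pB3, against 30.04 and 35.0 in Epcam hi, and fell by 2.67 ± 0.27 (edgeR adjusted p = 5.0e-06). Slc16a6, a monocarboxylate transporter family member, had 0.605 and 0.389 CPM in pB3, against 3.80 and 6.90 in Epcam hi, and fell by 3.42 ± 0.51 (edgeR adjusted p = 0.00015). In the second reporter line it had 2 counts over both libraries, a ratio of Epcam hi over the second reporter line of 90.9 (interval 24.8 to 756). Trim47 fell by 1.44 ± 0.21 in the second reporter line relative to pB3 (edgeR adjusted p = 0.00014) and Slc39a11 by 1.22 ± 0.22 (edgeR adjusted p = 0.0008). In the second reporter line relative to Epcam hi, 18.4% of all tested genes were up and 18% down. Of 20 metabolism members 3 were up and 9 down there, and of 12 RNA processing members 4 and 0. The 10 members for cytoskeleton, adhesion and polarity, which include Evpl, Llgl2, Lgals3bp and Ttyh2, had 3 up and 3 down. In the other lists 5 and 5 of 17 signalling, 0 and 5 of 15 membrane traffic, 3 and 3 of 20 protein synthesis and 1 and 2 of 11 chromatin members were called. For pB3 relative to Epcam hi, 0 metabolism members were up and 7 down, and 2 cytoskeleton members were up and 2 down. The shares of all tested genes there were 14.8% and 14.6%. No test of these lists was made.

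How far the members shared a difference, and how far each went its own way, was described by dividing the variation of log2 CPM around each gene's mean over the 8 libraries. A component common to all members of a line held 23.6% of it, differences particular to a gene and line held 72.9%, and differences between replicates held 3.45%. Among the 104 members after the gap the common component held 36.2% and the gene-by-line component 60.2%. Among the 26 before it these were 3.62% and 93.3%, near the 2.24% and 94.0% of the 10916 coding genes outside. The common component of the members was thus smaller than the part in which genes differed. It was larger than that of the pooled coding genes outside, but that value is small by construction. TMM scaling centres the lines over the bulk of genes, and the common component of all tested genes was 0.02%. Other contiguous stretches were not examined, so whether the common component of this stretch is unusual was not tested. The choice of the stretch for its level in pB2 also enters this comparison. The interquartile range of the members' log2 fold changes was 1.18 for pB2 against the second reporter line, 1.32 against pB3 and 1.32 against Epcam hi. For coding genes outside it was 1.39, 1.13 and 1.33. The SD over members was 2.05, 1.52 and 1.45, below the 2.28, 1.97 and 2.17 of coding genes outside. Over the 104 members after the gap the interquartile ranges were 1.14, 1.01 and 1.31, and over the 26 before it 2.07, 0.78 and 1.22.

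Of the 130 members, 64 passed the test in none of the comparisons among the second reporter line, pB3 and Epcam hi (49.2%, beside 51.0% of all tested genes). In those 64 members the median difference of pB2 from the other lines was 0.74, with 58 above 0. In the other 66 it was 1.36, with 53 above 0. Over all tested genes, 3978 of 8110 in the former class and 3665 of 7780 in the latter were above 0. The median also varied little with level: in 3 strata of mean CPM over all libraries it was 1.009 for the lowest, 0.96 for the middle and 0.94 for the highest, while the SD of the differences was 1.82, 1.59 and 0.94. Abundant members therefore lay closer together than rare ones.

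Members that start close to each other on opposite strands offer a finer view, since strand-aware counting keeps them apart. There were 14 such pairs with starts within 1000 bases. Their differences of pB2 from the other lines were a median of 0.42 apart, against 0.79 for 129 pairs of members adjacent along the chromosome. The 129 are not a separate set: they hold opposite-strand pairs that are adjacent, and distant neighbours such as the pair across the widest gap. Such opposite-strand pairs outside the stretch were not examined. Of the 14 pairs, some had like values. Ddx5 and Cep95 had −0.09 and −0.16, and Oxld1 and Ccdc137 had 0.61 and 0.65. Arl16 and Hgs had 0.12 and 0.01, and Slc16a6 and Arsg, a lysosomal sulphatase gene, had 4.02 and 4.24. In others the values were far apart: Alyref had 2.10 and Anapc11, a subunit of the anaphase-promoting complex, had 0.78; Mrps7 had 1.84 and Gga3, a Golgi adaptor, had 0.31; Sgsh, a heparan sulphate sulphatase, had 1.32 and Slc26a11, an anion transporter, had −0.02.

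Promoter letters were counted in the members and set beside those of other genes. RefSeq listed a promoter, from 250 bases before the start to 50 after it, for 102 of 130 members. The GC box GGGCGG, on either strand, was in 69.6% of these, beside 67.6% of 8828 promoters of coding genes outside the stretch with at least 1 CPM in pB2 and 46.3% of all 17492 promoters in the table. The CCAAT letters were in 37.3%, beside 39.1% and 39.0%. TATAAA was in 11.8%, beside 6.11% and 13.3%, CCGGAAGT in 9.80%, beside 9.19% and 5.29%, and the E box CACGTG in 11.8%, beside 10.6% and 7.90%. The cAMP response element TGACGTCA was in 0.980%, beside 3.50% and 2.34%, and the palindromic NRF1 site in 1.96%, beside 2.17% and 1.32%. Median GC content was 63.3% in the members' promoters, 61.7% in those of the other expressed coding genes and 56.3% in all. A match is a run of letters and says nothing of binding.

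Values at the limits of the choice are as follows. The first 3 members by position were Psmc5 (0.73), Smarcd2 (1.17) and Ern1 (−1.19), and the last 3 were Alyref (2.10), Anapc11 (0.78) and Pcyt2 (1.04); just outside were Ccdc47 (−0.32), Ddx42 (0.06) and Ftsj3 (0.23) at the proximal end and Sirt7 (0.90), Mafg (−0.42) and Pycr1 (−0.66) at the distal end, all as log2 differences of pB2 from the mean of the other lines. By level, the members just above 1 CPM in pB2 were Tbc1d16 (1.00 CPM), Cep295nl (1.23) and Aatk (2.13), and the genes just under it were Sumo2 (0.948), 1810010H24Rik (0.922) and Rgs9 (0.858). Sumo2 and Actg1, which have near-identical copies elsewhere, were counted at 31 and 13 reads over both pB2 libraries and may have lost reads to those copies. Of the genes left out by name, Tk1, the thymidine kinase of replicating cells, differed by 2.37 ± 0.14, and Birc5, the mitotic survivin gene, by 1.85 ± 0.16. The other 3 named were Sox9 at 0.96 ± 0.15, Itgb4 at 0.07 ± 0.22 and Timp2 at −0.01 ± 0.16.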

How the data were processed

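RNA-seq counts of 8 libraries, 2 each of pB2, a second Snail-IRES-YFP reporter line, pB3 and Epcam hi, were analysed. The counts are raw reads per gene as deposited by the authors. Single-end reads were aligned with STAR 2.6.1a to GRCm38/mm10 and counted with featureCounts, per the submitters' processing notes, with Ensembl annotation and the stranded option, per the series' design text. How reads with several alignments were treated is not given in the sources used here. Gene symbols and coordinates came from GENCODE M21, and promoters from RefSeq GRCm38.p6.

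Genes were kept by edgeR's filterByExpr with the line as group (15890 genes). All 8 libraries entered 1 edgeR 4.0.16 quasi-likelihood fit with TMM normalisation and no covariate (R 4.3.3, 4 residual degrees of freedom, biological coefficient of variation 0.178). P-values were two-sided and Benjamini-Hochberg adjusted over all tested genes, with calls at an adjusted p under 0.05. SEs were derived from the fitted change and its F statistic. CPM used the TMM library sizes. The floor for a line at 0 was 3 counts over both libraries, and 95% exact intervals cover counting error only. The fits were tested on simulated data. Alternatives were DESeq2 1.42.0 size factors and test, limma-voom, library totals, TMM without the genes of chromosome 11, and no low-count filter. Further ones were other thresholds on level, each library left out, and a replicate block. Replicate numbers did not pair the libraries: correlations of deviations between same-numbered libraries were −0.10 to 0.17.

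The members and lists were chosen with earlier results of these data known. Named genes were the 2 highest per role list in CPM per kb of exon, the 4 highest and 4 lowest differences of pB2 from the mean of the other lines, 2 called each way in each comparison among the other lines with at least 5 CPM in the higher line, complex subunits, 3 genes on each side of each limit, and the 5 genes left out by symbol. Role lists held 105 of the 130 members. Pairs of opposite-strand genes were named after their values were seen.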

Additional observations from a re-analysis of the deposited data

How the results depend on the processing

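No median of the members for pB2 against another line changed sign under any alternative run. The same held for the named members called in comparisons among the other lines, in those comparisons. For pB2 against the mean of the other lines, sign changes of named members were counted only in part and are not given. With library totals in place of TMM, which moved the median of all tested genes by 0.23, 0.19 and 0.11 for pB2 against the second reporter line, pB3 and Epcam hi, the members' medians became 1.13, 1.17 and 0.99. For pB2 against pB3 the median was 1.01 both with DESeq2 size factors and with DESeq2, 1.02 over members with at least 5 CPM in pB2, 0.91 over all tested coding genes of the stretch, and 1.13 over the members after the widest gap, an alternative chosen after seeing the data. Those members had a median of 1.00 against Epcam hi and an interquartile range of 1.01 against pB3. The interquartile range against the second reporter line and Epcam hi was 1.37 and 1.44 with at least 1 CPM over all libraries, and 1.43 and 1.51 over all tested coding genes.

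With each library left out in turn, calls ranged over 43 to 52 (the second reporter line against Epcam hi), 15 to 41 (the second reporter line against pB3) and 15 to 40 (pB3 against Epcam hi). A lone library was then assumed to vary like the other lines. The medians of pB2 ranged over 0.86 to 0.96 against the second reporter line, 0.95 to 1.03 against pB3 and 0.87 to 0.94 against Epcam hi, and the interquartile ranges over 1.18 to 1.48, 1.25 to 1.37 and 1.32 to 1.49. With the replicate block, the medians were 0.89, 0.97 and 0.87. The replicate numbers do not pair the libraries, so this block adds a term that only the number gives. With 2 libraries per line, small differences among lines could not be detected.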
